A study of Rattus norvegicus with 18 samples.

Results

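Bone morphogenetic proteins (BMPs) and activins, 2 branches of the transforming growth factor beta family, were followed through 10 genes in rat kidneys with a tied ureter. The genes were chosen by name from the deposited gene table, which holds 30957 genes, and each of the 10 names matched 1 row. They are the BMP ligands Bmp2, Bmp4, Bmp6 and Bmp7, the inhibin beta chains Inhba and Inhbb, which pair to form activins, the secreted antagonists Grem1 and Fst, and the BMP-responsive transcription regulators Id1 and Id3. The study tied the left ureter of rats for different lengths of time and took renal parenchyma for RNA sequencing, to follow the kidney as obstruction lasts longer. There were 5 libraries after 1 day of ligation, 5 after 3 days, 5 after 7 days and 3 labelled 14 days. All 18 came from the obstruction model and carried the same batch label. Strain, sex and age were not given in the labels, sham rats were not analysed here, and every comparison below is therefore between durations of obstruction.

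BMPs and activins are secreted dimers that bring type I and type II receptor kinases together. BMP receptors then phosphorylate SMAD1, SMAD5 and SMAD8, activin receptors phosphorylate SMAD2 and SMAD3, and both sets enter the nucleus with SMAD4. Gremlin 1 binds BMP2, BMP4 and BMP7, follistatin binds activins most tightly and some BMPs, and Id1 and Id3 are among the genes that BMP-activated SMADs switch on most directly. In the adult kidney BMP7 is made mainly by tubules and is known for opposing fibrosis in rodent models, while gremlin 1 and activin A are known for rising in fibrotic kidneys.

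The libraries held 5488540 to 12049915 counts. The 3 libraries labelled 14 days went against what their label would lead one to look for. Havcr1, the tubular injury marker, had 0.317 to 7.45 FPKM (a read count scaled for gene length and library depth) in them, against 188 to 1040 FPKM at 1 to 7 days. Spp1, osteopontin, a matrix protein that injured tubules release, had 36.8 to 258 FPKM in them, against 5640 to 15400 FPKM at 1 to 7 days. Replicates 1 and 3 labelled 14 days and replicate 5 of day 1 stood apart from the rest on the first principal component of all genes (40.5% of the variance), and replicate 2 labelled 14 days on the second (18.6%). In replicate 5 of day 1, 7 collecting duct markers summed to 874 FPKM, against 167 to 229 FPKM in the other 4 libraries of that day, and 5 urothelial markers to 86.5 FPKM, against 0.152 to 3.85 FPKM. Because of this, 1, 3 and 7 days were compared in a fit of their own 15 libraries, a choice made with earlier results of these data known. Values with all 18 libraries in the fit are given wherever they end a call on a named gene.

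The genes lie apart in the genome. In the deposited table's coordinates, for which no build is named, Bmp2 (ENSRNOG00000021276) spans chr3:126335863-126346318 on the plus strand and Bmp4 (ENSRNOG00000009694) chr15:20776054-20822740 on the minus strand. Bmp6 (ENSRNOG00000013717) spans chr17:26955142-27112820 and Bmp7 (ENSRNOG00000053384) chr3:170879973-170955399, both on the minus strand. Inhba (ENSRNOG00000014320) spans chr17:51898217-51912496, Inhbb (ENSRNOG00000060237) chr13:35436532-35442222, Grem1 (ENSRNOG00000026053) chr3:105203309-105214989 and Fst (ENSRNOG00000011631) chr2:46538700-46544457, all on the minus strand. Id1 (ENSRNOG00000021750) spans chr3:148215540-148216718 and Id3 (ENSRNOG00000026124) chr5:154489590-154491223, both on the plus strand. No other gene of the table overlaps any of the 10.

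Promoters are shown for the 2 direct BMP targets and for 2 genes of the signal itself. The latter, Inhbb and Grem1, were the only genes searched that hold the motif marked below. RefSeq (GRCr8) promoter entries matched 7 of the 10 genes, and Bmp2, Bmp7 and Fst were not among them. Each run below is the 250 bases just before the annotated start, 5′ to 3′ on the gene's strand, and capitals mark GGCGCC, a palindromic GC box that SMAD1 and SMAD5 can bind, which reads the same on both strands. The windows are chr13:33089374-33089623 (minus strand) for Inhbb, chr3:120978320-120978569 (minus strand) for Grem1, chr3:161671314-161671563 (plus strand) for Id1 and chr5:153656041-153656290 (plus strand) for Id3.
Inhbb: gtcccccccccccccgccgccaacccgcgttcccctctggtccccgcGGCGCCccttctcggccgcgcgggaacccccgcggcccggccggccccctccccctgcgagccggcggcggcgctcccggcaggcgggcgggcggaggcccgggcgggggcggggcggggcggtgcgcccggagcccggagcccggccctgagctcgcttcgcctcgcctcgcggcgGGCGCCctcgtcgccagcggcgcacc
Grem1: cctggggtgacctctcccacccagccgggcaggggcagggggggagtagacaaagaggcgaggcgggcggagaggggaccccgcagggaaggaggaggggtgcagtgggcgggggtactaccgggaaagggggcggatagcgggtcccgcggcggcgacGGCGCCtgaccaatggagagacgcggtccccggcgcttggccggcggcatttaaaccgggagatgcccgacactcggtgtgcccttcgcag
Id1: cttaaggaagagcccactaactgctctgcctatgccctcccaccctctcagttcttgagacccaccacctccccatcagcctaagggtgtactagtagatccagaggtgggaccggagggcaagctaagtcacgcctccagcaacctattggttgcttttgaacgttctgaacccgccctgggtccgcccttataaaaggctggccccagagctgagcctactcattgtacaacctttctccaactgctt
Id3: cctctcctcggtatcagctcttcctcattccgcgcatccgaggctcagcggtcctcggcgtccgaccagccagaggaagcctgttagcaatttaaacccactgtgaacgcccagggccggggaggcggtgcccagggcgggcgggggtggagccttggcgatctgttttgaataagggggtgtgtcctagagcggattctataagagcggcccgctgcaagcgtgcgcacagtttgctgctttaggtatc
Inhbb holds 2 copies of GGCGCC, starting at bases 48 and 225 of its window, and Grem1 holds 1, starting at base 160. Id1 and Id3 hold none in these 250 bases, and neither do Bmp4, Bmp6 and Inhba. Sequence further upstream was not searched, and a SMAD site there would not show. Of 33469 RefSeq rat promoter windows of the same length, 8.69% hold the motif and 1.37% hold 2 or more copies. G and C made up 86.8% of the Inhbb window and 72% of the Grem1 window. In the other windows searched here they made up 43.6% (Inhba) to 66.4% (Bmp4). The short SMAD pattern GTCTG, also searched on both strands and contained in no GGCGCC match, was in 42.9% of the windows, with 2 copies in Bmp4. The letters alone are a description of sequence and not of binding.

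Among the 10 genes, levels per length ranged over more than 2 orders of magnitude. At 1 day mean FPKM was 143 for Id3, 37.1 for Bmp7, 36.2 for Id1, 7.84 for Grem1, 7.12 for Inhbb, 4.18 for Fst, 3.41 for Bmp6, 3.11 for Bmp4, 1.72 for Bmp2 and 0.387 for Inhba. Bmp7 and Id1 overlapped in their libraries at that time, as did Grem1, Inhbb, Fst, Bmp6 and Bmp4. At 7 days mean FPKM was 147 for Id3, 51.6 for Bmp7, 45.1 for Id1, 19.6 for Fst, 17.8 for Grem1, 9.34 for Bmp6, 6.92 for Bmp4, 6.69 for Inhbb, 2.21 for Bmp2 and 0.635 for Inhba. At 7 days all 5 libraries of Grem1 lay above all 5 of Bmp4 and Inhbb, and Fst lay above Inhbb and overlapped Bmp4. Bmp7 had the highest mean level of the ligands among the 10 genes at each of the 4 durations.

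**Figure D1:**
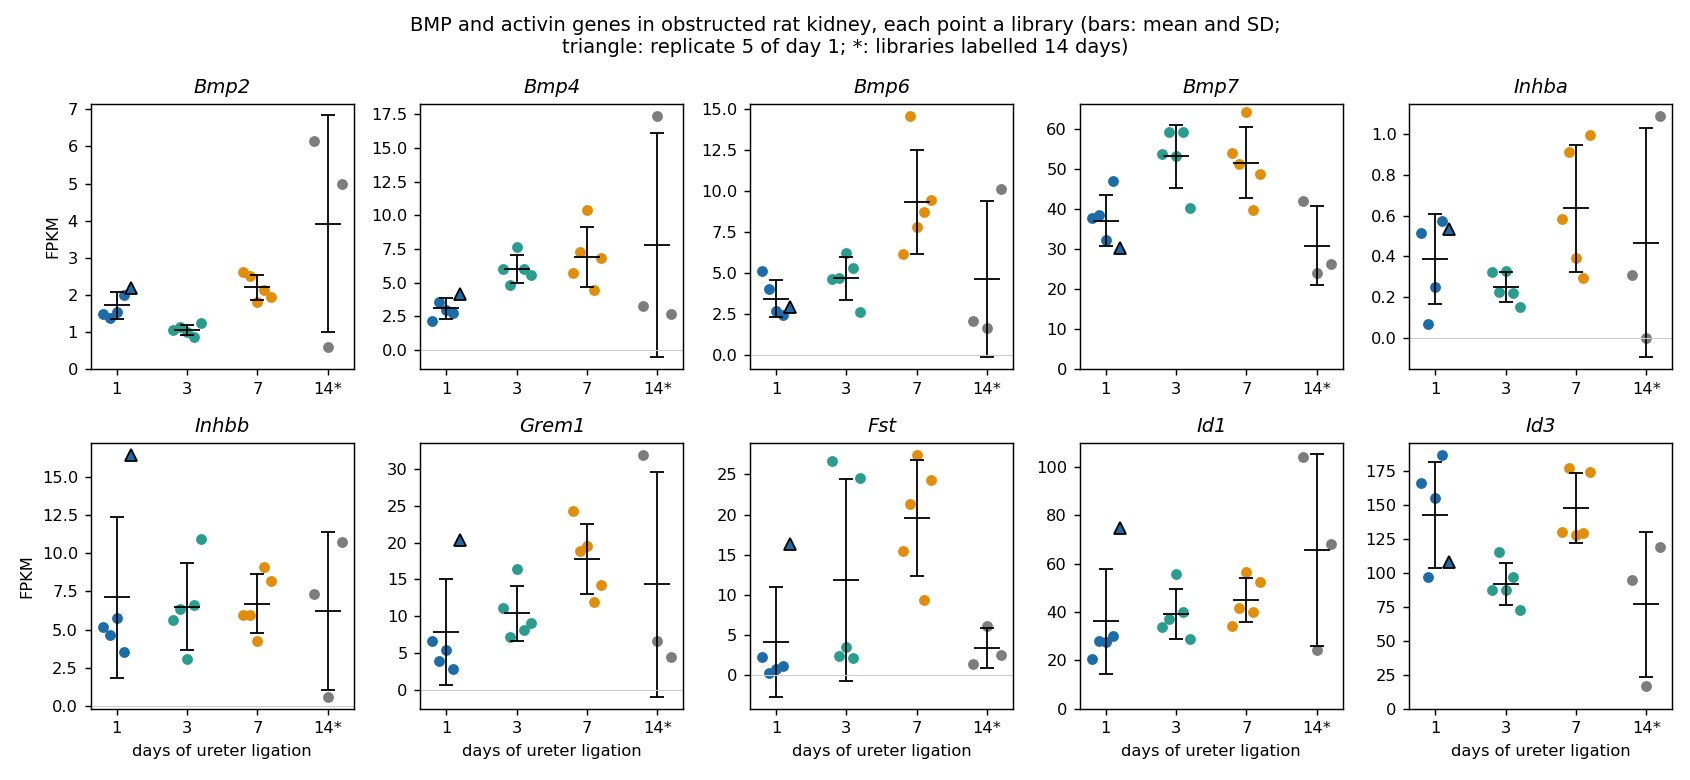
FPKM (vertical axis) of each of the 10 genes in every library at 1, 3, 7 and 14 days of ureter ligation (horizontal axis), with mean and SD bars. The triangle is replicate 5 of day 1, which lies above its group at 16.4 FPKM for Inhbb, 20.4 for Grem1, 16.3 for Fst and 74.7 for Id1, and the asterisk marks the 3 libraries labelled 14 days.

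Over 1, 3 and 7 days, 5 of the 9 genes that passed the filter on low counts changed (Bmp2, Bmp4, Bmp6, Bmp7 and Id3), in edgeR's quasi-likelihood F test across the 3 durations with Benjamini-Hochberg adjustment over 13991 genes. By the same test 34.4% of all genes tested changed. With all 18 libraries in the fit, an alternative added after seeing the data, 1 member passed, Bmp6 (0.0391), beside 19.7% of all genes, and adjusted p was 0.115 for Bmp2, 0.194 for Bmp4, 0.0989 for Bmp7 and 0.226 for Id3. In the fit of 15 libraries adjusted p was 0.00155 for Bmp2, 0.00456 for Bmp6, 0.00581 for Bmp4, 0.0197 for Id3 and 0.0417 for Bmp7. It was 0.12 for Grem1, 0.17 for Fst, 0.803 for Id1 and 0.899 for Inhbb. In that fit all 4 BMP ligands were among the called genes, and neither antagonist was. Both antagonists had an outlying value in replicate 5 of day 1, and their pairwise values without it are given below. Inhba did not pass the filter in these 15 libraries. Whether each library is from its own rat is not stated in the labels, so a p-value here measures how libraries vary, and part of that variation may be technical. In bulk tissue fewer cells of a type and less RNA per cell cannot be told apart. Below, ± after a log2 difference is its standard error (SE), and a number in brackets after it is edgeR's adjusted p.

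Over 1 to 7 days Bmp4, Bmp6 and Bmp7 had their lowest mean level at 1 day, and Bmp2 at 3 days. Bmp2, a ligand best known for inducing bone, was lower at 3 days than at either neighbouring time. Its libraries had 1.49, 1.39, 1.54, 2 and 2.2 FPKM at 1 day, 1.07, 1.13, 0.998, 0.882 and 1.25 FPKM at 3 days, and 2.61, 2.51, 1.82, 2.15 and 1.96 FPKM at 7 days. No library of 3 days reached the lowest of either other group, while 1 and 7 days overlapped. Bmp2 averaged 1.07 ± 0.138 FPKM at 3 days and 1.72 ± 0.353 FPKM at 1 day (SD, n = 5 each), or -0.71 ± 0.16 in log2 fold change, with an edgeR adjusted p of 0.0163. It averaged 2.21 ± 0.343 FPKM at 7 days, 0.97 ± 0.16 on the log2 scale above 3 days (edgeR adjusted p = 0.00533). At 7 days against 1 day the log2 difference was 0.26 ± 0.16 (edgeR adjusted p = 0.206). These are low counts, 20 to 72 per library over the 3 durations. Both calls at 3 days held in each of 15 fits that left out 1 library, but with all 18 libraries in the fit edgeR adjusted p was 0.292 for 3 against 1 day and 0.142 for 7 against 3 days.

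Bmp4, which limits ureteric budding in the mouse embryo, was higher at 3 and 7 days than at 1 day. It had 2.16, 3.53, 2.96, 2.72 and 4.16 FPKM at 1 day, 6.02, 4.79, 7.67, 6.05 and 5.56 FPKM at 3 days, and 5.69, 7.27, 10.4, 4.42 and 6.84 FPKM at 7 days. All 10 libraries of 3 and 7 days lay above all 5 of 1 day. Bmp4 averaged 6.02 ± 1.05 FPKM at 3 days and 3.11 ± 0.767 FPKM at 1 day (SD, n = 5 each), or 0.94 ± 0.23 in log2 fold change (edgeR adjusted p = 0.0211). This call was lost without replicate 1 of day 1 (adjusted p = 0.0554), replicate 4 of day 1 (0.052) or replicate 3 of day 3 (0.0622). At 7 days it averaged 6.92 ± 2.22 FPKM, 1.07 ± 0.23 on the log2 scale above 1 day (edgeR adjusted p = 0.00244), and 0.13 ± 0.22 above 3 days (adjusted p = 0.746). With all 18 libraries in the fit, adjusted p was 0.289 for 3 against 1 day and 0.0943 for 7 against 1 day.

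Bmp6, which sets hepcidin in the liver, was highest at 7 days. Its libraries had 5.09, 4.04, 2.64, 2.4 and 2.89 FPKM at 1 day, 4.64, 4.67, 6.2, 5.28 and 2.62 FPKM at 3 days, and 6.18, 14.6, 7.77, 8.74 and 9.47 FPKM at 7 days. The libraries of 7 days lay above all 5 of 1 day and overlapped those of 3 days by a single library. Bmp6 averaged 9.34 ± 3.16 FPKM at 7 days and 3.41 ± 1.13 FPKM at 1 day (SD, n = 5 each), or 1.35 ± 0.28 in log2 fold change (edgeR adjusted p = 0.00191). Of the members' pairwise calls at 1 to 7 days, this was the one that also passed with all 18 libraries in the fit (adjusted p = 0.0167), and it passed in each of 15 fits that left out 1 library. At 7 against 3 days the log2 difference was 0.92 ± 0.27 (adjusted p = 0.0524), which passed without replicate 5 of day 1 (0.0416), replicate 3 of day 3 (0.0434) or replicate 1 of day 7 (0.0373).

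Bmp7, the ligand with the highest level, shifted by less. It had 37.7, 38.4, 32.3, 46.9 and 30.3 FPKM at 1 day, 53.8, 59.2, 53.1, 59.2 and 40.2 FPKM at 3 days, and 53.9, 51.2, 64.1, 39.8 and 48.8 FPKM at 7 days. Replicate 5 of day 3 and replicate 4 of day 7 overlapped the range of 1 day. Bmp7 averaged 53.1 ± 7.77 FPKM at 3 days and 37.1 ± 6.49 FPKM at 1 day (SD, n = 5 each), or 0.5 ± 0.15 in log2 fold change (edgeR adjusted p = 0.0481). The call lay at the threshold: it remained in 4 of 15 fits that left out 1 library, adjusted p reached 0.11 without replicate 3 of day 1, and it was 0.136 with all 18 libraries in the fit. At 7 against 1 day the log2 difference was 0.39 ± 0.15 (adjusted p = 0.0551). Beside this, 10 of 10 proximal tubule markers had a positive log2 difference at 3 against 1 day, with a median of 1.09, and 2 were called. These markers summed to 575 to 2870 FPKM at 3 days and 295 to 824 FPKM at 1 day. Of 6 loop and distal tubule markers tested, 4 were positive, with a median of 1.01, and 2 were called. Of 7 collecting duct markers 3 were positive, with a median of -0.11, and 0 were called. At 7 against 3 days 0 of 10 proximal tubule markers were positive (median -0.5), and Bmp7 differed by -0.11 ± 0.15 (edgeR adjusted p = 0.684). The part of any of these segments in the Bmp7 result was not tested.

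No change was called in the activin chains at 1 to 7 days. Inhbb, the beta B chain, had 5.19, 4.66, 5.77, 3.56 and 16.4 FPKM at 1 day, 5.61, 6.32, 3.07, 6.64 and 10.9 FPKM at 3 days, and 5.93, 5.98, 4.29, 9.1 and 8.15 FPKM at 7 days. Apart from replicate 5 of day 1 and of day 3, the other libraries of 1 to 7 days lay between 3.07 and 9.1 FPKM and all groups overlapped. The log2 difference was -0.16 ± 0.38 at 3 against 1 day (edgeR adjusted p = 0.823), -0.03 ± 0.38 at 7 against 3 days (0.971) and -0.19 ± 0.38 at 7 against 1 day (0.72). Without replicate 5 of day 1 the sign turned, to 0.39 at 3 against 1 day (0.388) and 0.35 at 7 against 1 day (0.346). Inhba, the beta A chain of activin A, had 1 to 16 counts per library at 1 to 7 days, which is 0.0669 to 0.995 FPKM. In the fit of all 18 libraries, where Inhba passed the filter, its log2 difference was -0.62 ± 0.61 at 3 against 1 day (0.635), 1.23 ± 0.59 at 7 against 3 days (0.277) and 0.61 ± 0.57 at 7 against 1 day (0.462).

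Gremlin 1 gave different answers with and without a single library. Grem1 had 6.6, 3.95, 5.39, 2.87 and 20.4 FPKM at 1 day, 11.1, 7.15, 16.4, 8.1 and 9.12 FPKM at 3 days, and 24.3, 18.9, 19.5, 12 and 14.2 FPKM at 7 days. Leaving aside replicate 5 of day 1, every library of 3 and 7 days lay above those of 1 day. With that library, Grem1 averaged 17.8 ± 4.85 FPKM at 7 days and 7.84 ± 7.15 FPKM at 1 day (SD, n = 5 each), or 1.09 ± 0.43 in log2 fold change (edgeR adjusted p = 0.0559). Without it, the log2 fold change was 1.79 (adjusted p = 0.000467) at 7 against 1 day and 1.1 (0.0261) at 3 against 1 day, against 0.39 ± 0.43 (0.584) with it. At 7 against 3 days the difference was 0.69 ± 0.42 (0.313).

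Fst, follistatin, had the largest standard errors of the 10. It had 2.28, 0.312, 0.833, 1.16 and 16.3 FPKM at 1 day, 26.7, 2.38, 3.54, 2.19 and 24.6 FPKM at 3 days, and 15.5, 21.3, 27.4, 9.4 and 24.3 FPKM at 7 days. At 3 days the libraries fell apart into replicates 1 and 5, near the level of 7 days, and replicates 2 to 4, near that of 1 day. At 7 days all 5 were at or above 9.4 FPKM. Fst averaged 19.6 ± 7.17 FPKM at 7 days and 4.18 ± 6.82 FPKM at 1 day (SD, n = 5 each), or 2.09 ± 0.88 in log2 fold change (edgeR adjusted p = 0.0733). Without replicate 5 of day 1 it was 3.94 (0.00256) at 7 against 1 day and 3.3 (0.0225) at 3 against 1 day, against 1.44 ± 0.87 (0.301) with it. At 7 against 3 days it was 0.65 ± 0.83 (0.66).

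The 3 libraries of 1 and 3 days with high Fst also had the highest sums of 5 urothelial markers among the 10 libraries of those days, with 86.5 FPKM in replicate 5 of day 1, 70.2 in replicate 1 of day 3 and 11.8 in replicate 5 of day 3, against 0.152 to 3.85 FPKM in the other 7. Collecting duct markers did not run with Fst at 3 days, where their sum was 213 FPKM in replicate 1 and 143 in replicate 5, within a range of 143 to 280 FPKM. Loop and distal tubule markers did at 3 days, with 721 FPKM in replicate 1 and 468 in replicate 5, against 258 to 332 FPKM in replicates 2 to 4. At 1 day they did not, with 205 FPKM in replicate 5, the lowest of a range of 205 to 361 FPKM. At 7 days, with Fst at 9.4 to 27.4 FPKM in every library, the urothelial markers summed to 0.246 to 1.61 FPKM and up to 4 of the 5 were at 0. The part of urothelial or of loop and distal tubule RNA in the Fst values of 1 and 3 days was not tested.

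**Figure D2:**
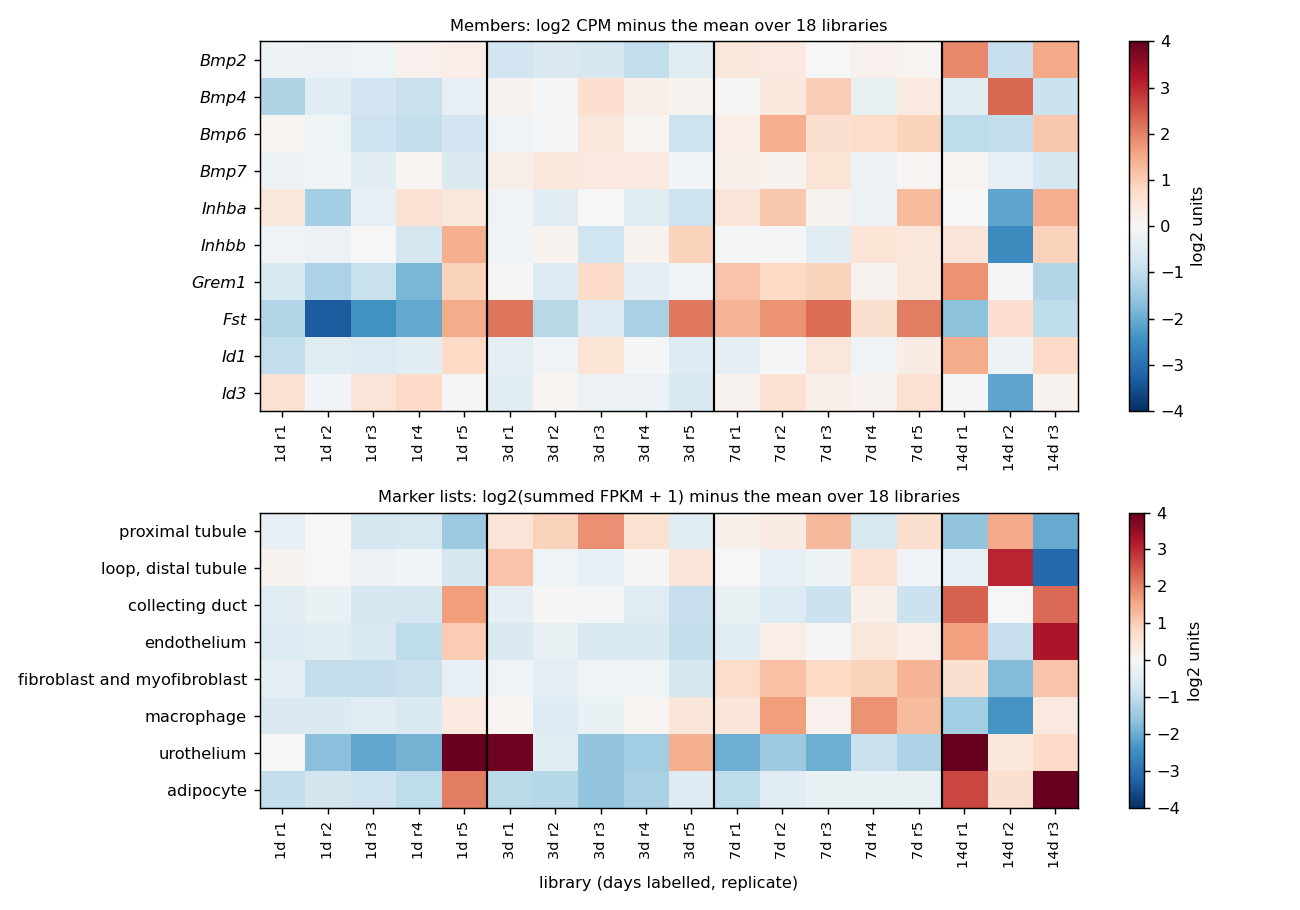
Log2 CPM of the 10 genes and log2(summed FPKM + 1) of cell type markers in each of the 18 libraries (columns, by labelled days and replicate), each row relative to its mean over the 18 libraries, with the colour scale clipped at 4 log2 units to either side. Replicate 5 of day 1 stands high within its own day for urothelial, collecting duct and adipocyte marker sums, as replicate 1 labelled 14 days does beside 7 days, and replicate 5 of day 1 is also high for Grem1, Fst, Inhbb and Id1 within its day.

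Of the target genes, Id3 was called at 3 against 1 day and Id1 was not. Id3, which had the highest mean level of the 10 genes at each duration, had its lowest mean of 1, 3 and 7 days at 3 days, as Bmp2 did. It had 166, 96.6, 155, 187 and 108 FPKM at 1 day, 87.3, 115, 87.2, 97.1 and 72.5 FPKM at 3 days, and 130, 177, 128, 129 and 174 FPKM at 7 days. All libraries of 7 days lay above all of 3 days, while replicates 2 and 5 of day 1 overlapped the range of 3 days. Id3 averaged 91.9 ± 15.8 FPKM at 3 days and 143 ± 38.7 FPKM at 1 day (SD, n = 5 each), or -0.66 ± 0.18 in log2 fold change (edgeR adjusted p = 0.0342). It averaged 147 ± 25.5 FPKM at 7 days, and the log2 difference from 3 days was 0.61 ± 0.18 (0.0515). At 7 against 1 day the difference was -0.05 ± 0.18 (0.862). The fall at 3 days was called in 8 of 15 fits that left out 1 library, with adjusted p up to 0.0863 without replicate 4 of day 1, and adjusted p was 0.27 with all 18 libraries in the fit. The difference between 7 and 3 days passed without replicate 5 (0.0311) or replicate 2 (0.0428) of day 1, or replicate 3 of day 7 (0.0499).

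Id1 had 20.6, 28, 27.8, 30 and 74.7 FPKM at 1 day, 33.9, 37.1, 55.9, 40.1 and 28.9 FPKM at 3 days, and 34.4, 41.5, 56.7, 40.2 and 52.5 FPKM at 7 days. Again it was replicate 5 of day 1 that made the groups overlap at 7 against 1 day. Id1 averaged 45.1 ± 9.24 FPKM at 7 days and 36.2 ± 21.8 FPKM at 1 day (SD, n = 5 each), or 0.23 ± 0.3 in log2 fold change (edgeR adjusted p = 0.566). Without that library it was 0.66 (0.0224). At 3 against 1 day it was 0.1 ± 0.3 (0.855) with the library and 0.53 (0.105) without, and at 7 against 3 days 0.13 ± 0.3 (0.822). In that replicate, 5 adipocyte markers summed to 117 FPKM, against 12.9 to 16.1 FPKM in the other libraries of day 1, and 7 endothelial markers to 324 FPKM, against 77.7 to 118 FPKM. Their part in the Id1, Grem1, Fst and Inhbb values of this library was not tested.

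Counted by comparison, 4 of the 9 genes tested passed at 3 against 1 day, with Bmp4 and Bmp7 higher and Bmp2 and Id3 lower, where edgeR called 10.5% of all genes (5.27% higher and 5.18% lower). Libraries of 3 and 1 day did not overlap for 2 of the 9, Bmp4 higher and Bmp2 lower, as for 8.26% of all genes (5.11% higher and 3.14% lower). At 7 against 3 days 1 of 9 passed, Bmp2, where 7.92% of all genes were called (4.75% higher and 3.17% lower), and libraries did not overlap for 2, Bmp2 and Id3, both higher, against 8.49% of all genes (7.13% higher and 1.36% lower). At 7 against 1 day 2 of 9 passed, Bmp4 and Bmp6, both higher, where 38.2% of all genes were called (18% higher and 20.2% lower), and the same 2 did not overlap, against 21.7% of all genes (14.6% higher and 7.05% lower). The median log2 difference of the 9 was 0.39 at 3 against 1 day, 0.61 at 7 against 3 days and 0.39 at 7 against 1 day, with -0.02, -0.01 and -0.01 over all genes tested. With all 18 libraries in the fit, 0 of the members passed at 3 against 1 day (2.27% of all genes), 0 at 7 against 3 days (1.05%) and 1 at 7 against 1 day (25.6%). At an unadjusted p under 0.05 in that fit, 2, 2 and 4 of the 10 members passed. The share of all genes at that threshold was not computed. DESeq2 on the 15 libraries called 4, 3 and 4 of the members, beside 2216, 1963 and 5685 of all genes.

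**Figure D3:**
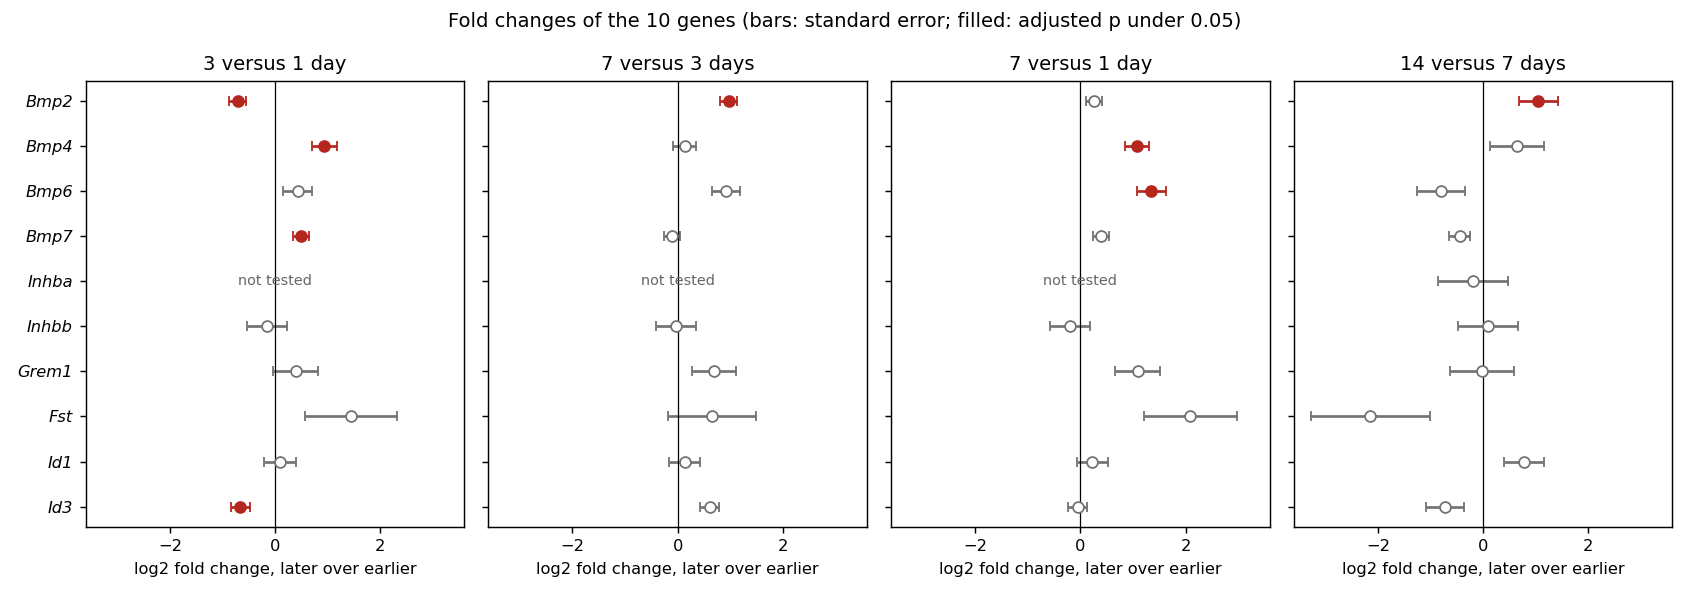
Log2 fold change, later over earlier duration (horizontal axis), with its standard error for each gene (rows) in 4 comparisons (panels), filled where edgeR's adjusted p was under 0.05. Filled points are Bmp4, Bmp7, Bmp2 and Id3 at 3 against 1 day, Bmp2 at 7 against 3 days, Bmp4 and Bmp6 at 7 against 1 day, and Bmp2 at 14 against 7 days, and the bars of Fst are the longest in each panel.

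The 3 libraries labelled 14 days differed widely from one another in these genes. Bmp2 had 6.14, 0.612 and 5 FPKM in them, Bmp4 3.24, 17.4 and 2.71, and Bmp6 2.06, 1.64 and 10.1. Grem1 had 31.9, 6.68 and 4.4 FPKM, Inhbb 7.35, 0.627 and 10.7, and Id1 104, 24.5 and 68.3. Replicate 2 was thus highest for Bmp4 and lowest for Bmp2, Inhbb and Id1. Bmp7 had 42.1, 24 and 26.3 FPKM, Fst 1.43, 6.17 and 2.55, and Id3 94.9, 17.1 and 119. For Fst and Id3 all 3 libraries lay below all 5 of 7 days in FPKM. In log2 CPM with TMM scaling both genes overlapped. Fst was 3.32 in replicate 2 labelled 14 days and 3.29 in replicate 4 of day 7. Id3 was 6.92 in replicate 3 labelled 14 days and 6.91 in replicates 1 and 4 of day 7.

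At 14 against 7 days, in a fit of all 18 libraries, 1 of the 10 genes was called, where edgeR called 38.3% of 14511 genes (21.4% higher and 16.9% lower). It was Bmp2, at 3.92 ± 2.92 FPKM (SD, n = 3) in libraries labelled 14 days and 2.21 ± 0.343 FPKM (SD, n = 5) at 7 days, a log2 fold change of 1.05 ± 0.37 (adjusted p = 0.0353). Groups overlapped, and the call turned on which libraries stood for 14 days: with replicate 2 as the only one, a choice made after seeing the data, the value was -1.23 (0.0118), without replicate 1 it was 0.54 (0.31), and without replicate 3 it was 0.91 (0.111). It was also lost without replicate 3 (0.067), 4 (0.0608) or 5 (0.0666) of day 7. In FPKM, libraries did not overlap for 2 of the 10, Fst and Id3, both lower, as for 29.5% of all genes (2.93% higher and 26.6% lower). In log2 CPM with TMM scaling neither gene kept this separation. Their log2 differences were -2.14 ± 1.13 for Fst (0.147) and -0.73 ± 0.36 for Id3 (0.118). For the other genes the values were 0.65 ± 0.51 for Bmp4 (0.333), -0.8 ± 0.45 for Bmp6 (0.177), -0.44 ± 0.2 for Bmp7 (0.0991), -0.02 ± 0.6 for Grem1 (0.987), 0.1 ± 0.57 for Inhbb (0.915) and 0.78 ± 0.38 for Id1 (0.118). Without replicate 2 labelled 14 days Bmp4 turned to -1.03 (0.0153) and Id1 passed at 1.13 (0.0209). Without replicate 1 so labelled Bmp7 passed at -0.68 (0.0282), and without replicate 3 Bmp6 passed at -1.92 (0.00321) and Id3 at -1.09 (0.0486). Inhba had 5, 0 and 18 counts, with 0.533 CPM as the limit that a count of 0 allows in replicate 2, and a log2 difference of -0.19 ± 0.67 (0.852). The median of the 10 was -0.11, with 0.07 over all genes.

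In the libraries labelled 14 days, collecting duct markers summed to 1400, 275 and 1310 FPKM, against 150 to 314 FPKM at 7 days, with 3 of 7 called higher. Urothelial markers summed to 279, 5.41 and 7.28 FPKM, against 0.246 to 1.61 FPKM, with 4 of 4 tested called higher, and adipocyte markers to 179, 43.1 and 1910 FPKM, against 13.1 to 22.5 FPKM, with 5 of 5 higher. Endothelial markers summed to 498, 83.4 and 1530 FPKM, against 117 to 219 FPKM, with 5 of 7 higher. T cell markers summed to 1.89, 2.18 and 5.07 FPKM, against 16.1 to 78.8 FPKM, with 4 of 4 tested lower. Of 6 macrophage markers 3 were lower, and of 8 fibroblast and myofibroblast markers 3 were lower and 1 higher. Mitochondrial genes took 24, 27.4 and 14.4% of counts, against 7.25 to 9.21% at 7 days. The part of these differences in the values of the 10 genes was not tested.

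To set the 10 genes in their pathway, 78 ligands, receptors, antagonists, SMADs and targets were listed, 77 were found and 48 were tested at 1 to 7 days. Of the 39 tested that are not among the 10, 1 was called higher and 0 lower at 3 against 1 day (10.5% of all genes called), 3 higher and 0 lower at 7 against 3 days (7.92% of all genes), and 9 higher and 7 lower at 7 against 1 day (38.2% of all genes). Their median log2 difference was -0.07, -0.14 and 0 in these comparisons. At an unadjusted p under 0.05, 12, 16 and 20 of the 39 passed. The share of all genes at that threshold was not computed, so these counts are not read as a result about the list.

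Counts by role at 7 against 1 day are read beside 18% of all genes called higher and 20.2% called lower, and differences between roles were not tested. They cover only genes that passed the filter in the 15 libraries, as 10 of the 26 ligands listed did. A fall in a ligand with fewer counts would not show in them. Of 10 ligands tested, 5 were higher and 0 lower: beside Bmp4 and Bmp6 these were Inha, the inhibin alpha chain (9.08 ± 1.99 FPKM at 7 days and 3.76 ± 2.2 FPKM at 1 day, log2 difference 1.17 ± 0.3, adjusted p = 0.00754), Gdf11, a myostatin relative that signals through activin receptors (0.64 ± 0.12, 0.00127), and Gdf1, a Nodal partner (0.96 ± 0.26, 0.00936). Of 14 receptors and coreceptors, 1 was higher and 4 were lower. Rgma, a BMP coreceptor, had 3.85 to 7.52 FPKM at 7 days, above all libraries of 1 day at 1.27 to 2.62 FPKM (1.36 ± 0.21, 0.000301). Bmpr2, the BMP type II receptor, had 7.93 to 10.8 FPKM at 7 days, below all libraries of 1 day at 12.2 to 22.3 FPKM (-0.9 ± 0.15, 0.000486). The type I receptor Bmpr1a (-0.44 ± 0.12, 0.0126), the type I receptor Bmpr1b (-1.22 ± 0.44, 0.0388) and the activin type II receptor Acvr2b (-1.1 ± 0.26, 0.0042) were also lower. Bmpr1b was lost without replicate 5 of day 1 (-0.49, 0.175), with all 18 libraries (0.0685), and without replicate 3 (0.0778), 4 (0.0758) or 5 (0.0938) of day 7.

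Of 10 antagonists and extracellular modulators tested, 4 were higher and 1 lower at 7 against 1 day. Fstl1, a follistatin-like BMP4 binder, averaged 26.5 ± 7.07 FPKM at 7 days and 12.1 ± 5.21 FPKM at 1 day (SD, n = 5 each; 1.04 ± 0.24, edgeR adjusted p = 0.00354). Fstl3, a follistatin-like activin inhibitor (0.6 ± 0.18, 0.0152), Sostdc1, a BMP antagonist of distal tubules (0.84 ± 0.31, 0.042), and Nbl1, a gremlin relative (0.51 ± 0.17, 0.0265), were higher too. Bambi, a decoy receptor without a kinase, was lower (-0.39 ± 0.11, 0.00999). With all 18 libraries in the fit Sostdc1 (0.0921), Nbl1 (0.058) and Bambi (0.46) did not pass. Leaving out 1 library, Sostdc1 passed in 7 of 15 fits and Nbl1 in 8. At 7 against 3 days the 3 pathway genes outside the 10 that passed were Fstl1 (0.98 ± 0.24, 0.0259), Fstl3 (0.69 ± 0.18, 0.0322) and Rgma (0.88 ± 0.21, 0.0244). None of the 3 passed there with all 18 libraries in the fit, with adjusted p of 0.0878 for Fstl1, 0.111 for Fstl3 and 0.0903 for Rgma. All 3 were also lost without replicate 2 of day 3 (0.0704 for Fstl1, 0.077 for Fstl3 and 0.0681 for Rgma) or replicate 5 of day 7 (0.0605, 0.0848 and 0.0603 for the same genes), Fstl1 and Fstl3 without replicate 1 of day 3 (0.0524 and 0.078), and Fstl3 without replicate 3 of day 3 (0.0536).

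Of 9 SMADs and regulators, 0 were higher and 2 lower at 7 against 1 day. These were Smad4, the common partner (20.3 ± 3.55 FPKM at 7 days and 29.2 ± 5.03 FPKM at 1 day, -0.62 ± 0.13, edgeR adjusted p = 0.00238), and Smurf1, a ubiquitin ligase for SMAD1 and SMAD5 (-0.64 ± 0.14, 0.00269). The BMP SMADs Smad1 (0 ± 0.11, 0.982) and Smad5 (-0.26 ± 0.13, 0.123) and the inhibitory Smad6 (0.32 ± 0.21, 0.238) and Smad7 (0.09 ± 0.12, 0.574) did not pass. Of 5 target genes 1 was higher, Atoh8, a transcription factor that BMP signalling switches on. It averaged 3.44 ± 0.941 FPKM at 7 days and 1.15 ± 0.489 FPKM at 1 day (1.45 ± 0.26, 0.000842), and at 3 against 1 day the difference was 1 ± 0.27 (0.0289). That earlier call was lost with all 18 libraries in the fit (0.0817) and without replicate 1 (0.0565), 2 (0.0506) or 4 (0.0614) of day 1 or replicate 1 (0.0593) or 3 (0.0595) of day 3. Id2 had a log2 difference of 0.51 ± 0.24 (0.105) and Id4 of 0.4 ± 0.31 (0.334) at 7 against 1 day. Smad1, Smad5, Smad7 and Id2 were called in no comparison and are named for their roles, after their values were seen.

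**Figure D4:**
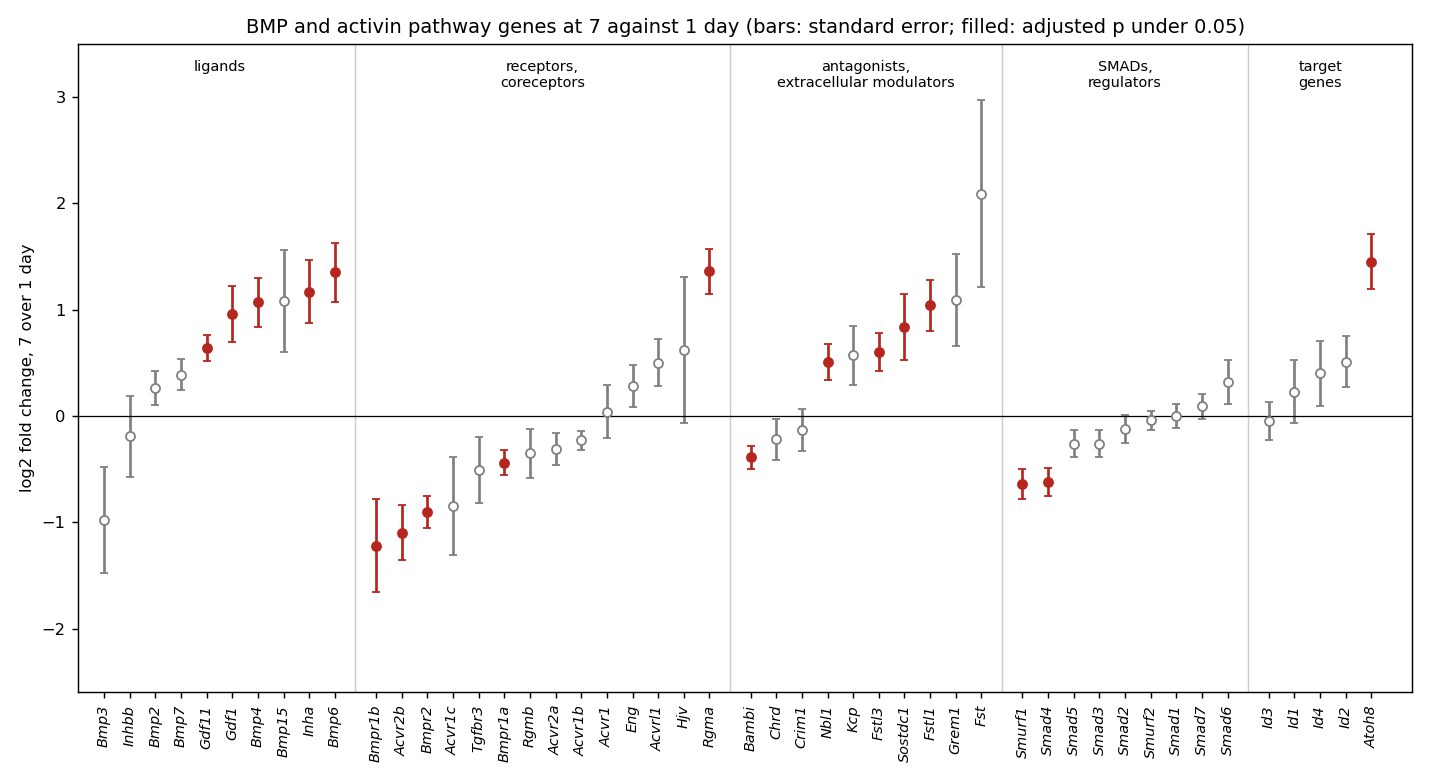
Log2 fold change at 7 over 1 day (vertical axis) with standard error for the 48 pathway genes tested, grouped by role along the horizontal axis, filled where edgeR's adjusted p was under 0.05. Called ligands all lie above 0, 4 of 5 called receptors and coreceptors and both called SMADs and regulators lie below 0, and 4 of 5 called antagonists lie above.

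Fibroblast and myofibroblast markers moved in the same comparisons. Of 8, 7 rose at 7 against 1 day and 5 at 7 against 3 days, with summed levels of 483 to 739 FPKM at 7 days, 180 to 261 FPKM at 3 days and 144 to 228 FPKM at 1 day. Of 6 macrophage markers 4 rose at 7 against 1 day, with sums of 64.5 to 201 FPKM at 7 days and 36.7 to 74.4 FPKM at 1 day. Of 5 T cell markers 4 were tested and all 4 rose, with sums of 16.1 to 78.8 FPKM at 7 days and 5.35 to 9.1 FPKM at 1 day. Of 7 endothelial markers 0 were called at 7 against 1 day by edgeR, and 0 had an unadjusted p under 0.05. At 1 day they summed to 324 FPKM in replicate 5 and 77.7 to 118 FPKM in the other libraries, against 117 to 219 FPKM at 7 days. The markers were not tested without that replicate. At 7 against 3 days 1 was called higher and the median log2 difference was 0.63. The part of these cells in the differences of Bmp4, Bmp6, Rgma and Fstl1 was not tested.

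At 14 against 7 days, 44 pathway genes outside the 10 were tested, and 14 were higher and 4 lower, beside 38.3% of all genes. Bmp3, a ligand that opposes other BMPs, had 10.1, 2.31 and 11.2 FPKM in libraries labelled 14 days, against 0.68 to 1.13 FPKM at 7 days (3.33 ± 0.58, edgeR adjusted p = 0.000473). It stood high at 4.06 FPKM in replicate 5 of day 1 and at 2.79 and 2.73 FPKM in replicates 1 and 5 of day 3, the 3 libraries of 1 and 3 days in which Fst was high. At 7 days, with Fst at 9.4 to 27.4 FPKM, Bmp3 was at 0.68 to 1.13 FPKM. Kcp, an extracellular enhancer of BMP7 signalling, averaged 0.43 ± 0.224 FPKM in libraries labelled 14 days (SD, n = 3) and 3.22 ± 0.64 FPKM at 7 days (SD, n = 5), a log2 difference of -2.58 ± 0.43 (0.000332).

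The genes with the most similar course across the 15 libraries of 1, 3 and 7 days differed from member to member. By Pearson r of log2 CPM among 13197 genes, given as a description of libraries that share depth and the outlying replicate, Bmp2 was most like Micall2 (0.84), Usp28 (0.82) and Pgf (0.82). Bmp4 was most like Patz1 (0.93), Lad1 (0.91) and Bend5 (0.91), and Bmp6 like Mmp23 (0.95), Srpx (0.94) and Tmem204 (0.93). Bmp7 was most like Slc19a3 (0.96), Lrpap1 (0.96) and Ces2g (0.93). Grem1 was most like Plk2 (0.93), Slco4a1 (0.93) and Trpv6 (0.92), and Fst like Axin2 (0.91), RGD1310819 (0.91) and Fam43a (0.9). Inhbb was most like Abhd12 (0.9), Rasal1 (0.89) and Sulf2 (0.88). Id1 was most like Cd320 (0.93), Mcf2l (0.85) and Slco4a1 (0.83), and Id3 like Tubb3 (0.84), Map4k4 (0.83) and Ankrd50 (0.82). Slco4a1 was the only gene named for more than 1 member.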

How the data were processed

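Renal parenchyma RNA was sequenced in 18 libraries. The submitters' processing notes name fastp 0.19.7 and HISAT2 2.0.4. What counted the reads, with which strand setting, annotation and build, is not given in the sources used here. For every gene and library the deposited table has a raw count and an FPKM value, as its file headers show. Dividing each count by the library's column total and 1 fixed gene length gave back the deposited FPKM up to a constant (8250 genes, largest ratio of implied lengths 1.00002).

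Libraries were grouped by their labels. The 10 genes, the gene lists and the choice to fit 1, 3 and 7 days without the libraries labelled 14 days were made with earlier results of these data known. The counts were passed through filterByExpr (with min.count at 10 and min.total.count at 15), scaled by TMM and given to the quasi-likelihood test of edgeR 4.0.16 in R 4.3.3. The 15 libraries of 1, 3 and 7 days left 13991 genes, and all 18, used for 14 against 7 days, left 14511. A call means an adjusted p (Benjamini-Hochberg, over all genes tested) under 0.05. Each standard error is |log2 fold change| over the root of F. The test was tried on simulated counts first.

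All 10 genes are named. Of the pathway list, any gene called in at least 1 comparison may be named. The 3 most similar genes per member have a mean FPKM of at least 1, by log2 CPM with a prior count of 2. Of the pathway list Twsg1 was not matched. Values of 1 other gene of the list are not reported here. Alternatives were DESeq2 1.42.0, limma 3.58.1 on log2(FPKM+1) and log2(FPKM+0.1), other filters and fits, a replicate block, and leaving out each library. Replicates of a day differed by more than counting noise (smallest reduced chi-square 6.83). Counting floors and this check cover counting error only.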

Additional observations from a re-analysis of the deposited data

Results flagged for a closer look

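In 4 of 30 groups of 5 libraries checked, 1 library lay far from the others, by Dixon's test at 95% confidence, and each time it was replicate 5 of day 1. The test flags about 1 in 20 groups of independent, normally distributed values. The 30 groups here share the same 15 libraries, so the 4 flags are not independent of one another. Inhbb was 16.4 FPKM there, against 3.56 to 5.77 FPKM in the other 4 libraries. Grem1 was 20.4 FPKM, against 2.87 to 6.6 FPKM. Fst was 16.3 FPKM, against 0.312 to 2.28 FPKM. Id1 was 74.7 FPKM, against 20.6 to 30 FPKM.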

How the results depend on the processing

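The count of the 10 genes called moved by more than 1.5 times under several settings, and the cause was not tested except where fewer samples or genes enter by construction. At 3 against 1 day it was 4, and 2 with a least mean FPKM of 1 in limma, with the replicate block or with the 2 groups fitted alone, and 0 with all 18 libraries. At 7 against 3 days it was 1, and 3 with DESeq2 or limma at any pseudocount or filter, 2 with the groups alone and 0 with all 18 libraries. At 7 against 1 day it was 2, and 4 with DESeq2 or the replicate block, 5 with limma on log2(FPKM+1), log2(FPKM+0.1) or the filtered FPKM, and 1 with all 18 libraries. Across the 3 durations it was 5, and 1 with all 18 libraries, added after seeing the data. At 14 against 7 days it was 1, Bmp2, and 0 with the replicate block. With limma it was 4 in all 3 forms, beside 5848 of all genes on log2(FPKM+1), 5854 on log2(FPKM+0.1) and 5592 on the filtered FPKM. The 4 were Bmp6, Bmp7, Fst and Id3, all lower, and Bmp2 was not among them. These fits had no TMM scaling. In FPKM, libraries did not overlap and lay lower for 26.6% of all genes, and higher for 2.93%. The shared direction of the 4 is therefore not read as a result about the members. Over all genes, DESeq2 called 2216 at 3 against 1 day and 1963 at 7 against 3 days, against 1463 and 1108 by edgeR. With all 18 libraries edgeR called 330 and 152. With 2 groups alone it called 3153 at 14 against 7 days, against 5560.

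Leaving out 1 library gave 1 to 5 of the members at 3 against 1 day, 1 to 3 at 7 against 3 days, 2 to 5 at 7 against 1 day, 4 to 6 across the 3 durations and 0 to 3 at 14 against 7 days. Over all genes it gave 775 to 2016, 324 to 1772, 4435 to 5841 and 4559 to 7459 in the 4 pairwise comparisons. The lowest counts of members came without replicate 1 of day 1 or replicate 3 of day 3 (1 each, at 3 against 1 day), and the highest at 7 against 1 day without replicate 5 of day 1 (5). Leaving out 1 library turned the sign of Id1 (-0.1 to 0.53) and Inhbb (-0.43 to 0.39) at 3 against 1 day, of Bmp4 (-0.08 to 0.26) and Inhbb (-0.21 to 0.24) at 7 against 3 days, and of Inhbb (-0.35 to 0.35) and Id3 (-0.15 to 0.07) at 7 against 1 day. At 14 against 7 days it turned Bmp4 (-1.03 to 1.1), Inhba (-1.59 to 0.32), Inhbb (-0.44 to 0.62) and Grem1 (-1.27 to 0.43).

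In limma on log2(FPKM+1), with and without the filter, and on log2(FPKM+0.1), Inhbb was 0.08 and 0.1 at 7 against 3 days and 0.07 and 0.09 at 7 against 1 day, and Id3 was 0.08 at 7 against 1 day in each. At 14 against 7 days Bmp4 was -0.22 and -0.3 and Inhbb -0.47 and -0.76 in these fits. Inhbb at 7 against 3 days was 0.04 with the replicate block. With replicate 2 as the only library labelled 14 days, Bmp2 was -1.23, Inhbb -2.79, Id1 -0.28 and Rgmb -0.32. Correlations of same-numbered libraries between durations ran from -0.42 to 0.21. Differently numbered libraries were not correlated for reference, so whether replicate numbers mark pairs is not settled. The replicate block is given only as an alternative. Depth limits Inhba (0 to 18 counts per library), Fst (2 to 352) and Bmp2 (11 to 125).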
